A study of Caenorhabditis elegans with 15 samples.

Results

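The first hour of development after collection was examined by setting the 3 arrays of embryos kept for 1 h against the 3 arrays of embryos taken at 0 h, 6 of the 15 arrays in the series. All arrays carried RNA of Caenorhabditis elegans embryos of the wild-type strain N2 whose mothers had received injections of dsRNA that targets 3 genes, pal-1, mex-1 and lit-1, so the treatment was shared by both times and embryos without it were not analysed here. The 1 h group was dissected from the mothers at the 2- to 4-cell stage and kept for 1 h at room temperature, and the 0 h group was collected at the same stage with no further incubation. Arrays were assigned to an hour by their titles, and the replicates of each hour are called A, B and C. The title of the series names the control of cell fate in the MS lineage, which founds much of the pharynx and body wall muscle.

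In C. elegans the oocyte supplies the embryo with transcripts made by the mother, and the embryo's own genome is switched on in the somatic founder cells within the earliest divisions, while the germ line precursor is held silent by the maternal protein PIE-1. Maternal transcripts are then cleared, some at oocyte maturation and egg activation and others in the somatic cells as these divide. Genes switched on in this window include targets of the maternal factor SKN-1, which starts the MS and E lineages, and targets of Notch signalling between early blastomeres.

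Each array gave a log2 expression value for 22548 probe sets of C. elegans genes, of which 20810 name a single gene, 17138 genes in all. The highest value of the bacterial control probe sets that should find no partner, 3.22, served as a mark of background. The 10 oocyte and early embryo markers examined, among them oma-1, pos-1 and pie-1, lay above that mark on all 6 arrays, from 4.44 to 10.9 at 1 h and from 8.01 to 11.9 at 0 h. Array 1 h B stood apart. Its correlation with the other 1 h arrays across probe sets was 0.914 and 0.915, against 0.981 between 1 h A and 1 h C, and its 3′ actin control read 5.16, against 10.7 and 10.5 on 1 h A and 1 h C and 10.4 to 11.3 at 0 h. The 5 adult yolk protein genes measured, markers of the mother's gut, averaged 6.91 on 1 h B, 3.28 and 3.25 on 1 h A and 1 h C, and 3.51 to 4.47 at 0 h. Array 1 h B also carries a time tag of 2 h, and 1 h C a tag of 3 h, in conflict with their titles. Array 1 h B correlated with the 2 h arrays at 0.850 to 0.878, and 1 h C with the 3 h arrays at 0.871 to 0.882, in both cases below their correlations with the other 1 h arrays. Results are therefore given with 1 h B and, for the counts and for some genes, without it. The size of a difference printed with no second value can also change without 1 h B.

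More transcripts fell than rose in the first hour. By limma, which fits all arrays in a single linear model and moderates the spread of each probe set, 612 genes (3.57% of those tested) were higher at 1 h and 1081 (6.31%) were lower at a Benjamini-Hochberg adjusted p under 0.05. Over probe sets the counts were 743 higher (3.3%) and 1371 lower (6.08%). Without 1 h B, 552 genes (3.22%) were higher and 797 (4.65%) lower. Of the genes called with all arrays, 482 of 612 (78.8%) and 766 of 1081 (70.9%) were called again, and 0 changed sign. The number of lower probe sets also fell to 899 without 0 h C. The labels name the samples as independent, but neither mothers nor days are given for them. The p-values measure the spread between these arrays, and 3 arrays an hour limit the precision. In whole embryos a loss of transcript per cell and a smaller share of the cells that hold it cannot be told apart.

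The split of higher and lower genes depends on how the arrays are scaled. RMA, the authors' normalization, makes the arrays' distributions alike, so all differences are relative to the bulk of transcripts. Of the 2114 probe sets called on the deposited scale, 35.1% were higher, against 6.38% with arrays centred on the spiked hybridisation controls (181 higher and 2658 lower) and 16% with arrays centred on ribosomal protein genes (493 higher and 2499 lower). The median difference over all probe sets was 0.083 on the deposited scale, -1.1 on the hybridisation controls and -0.22 on the ribosomal protein genes. A small rise on the deposited scale can therefore be a fall on the hybridisation controls, where the median was below 0 for every list examined except the very early, sdz and fbxb genes.

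**Figure D1:**
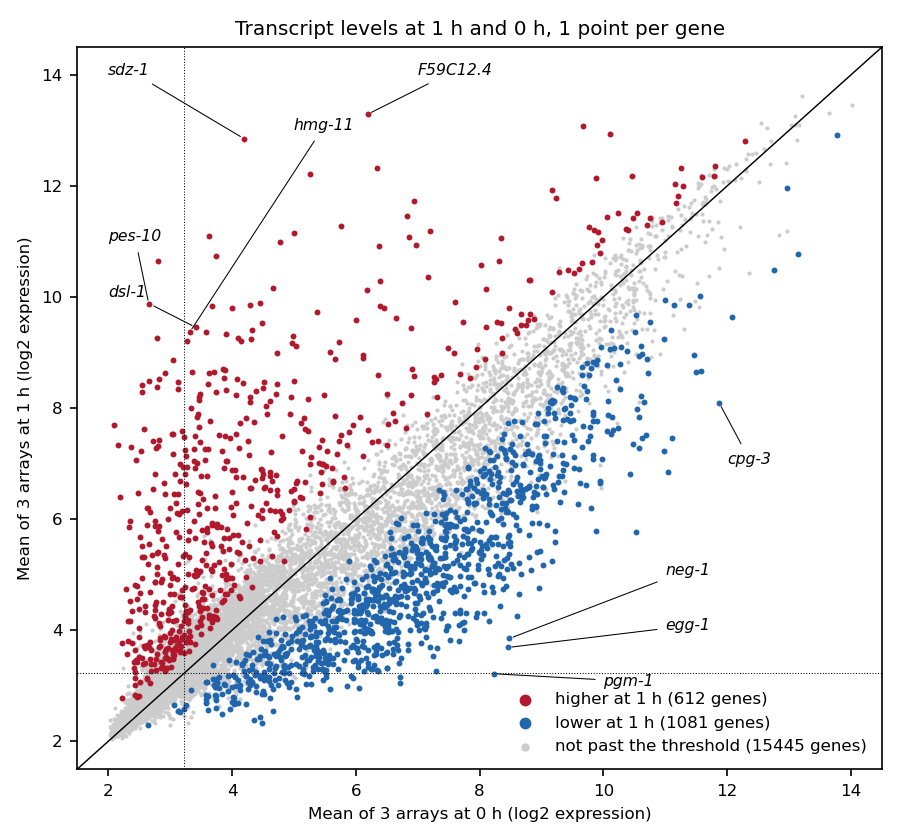
Mean log2 expression of 3 arrays at 1 h (vertical axis) against 0 h (horizontal axis), 1 point per gene, with the 612 genes called higher in red, the 1081 called lower in blue and the others in grey. Dotted lines mark background (3.22) and the diagonal marks equal levels. Risers start mostly from low levels, and fallers mostly from levels above 5.

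Rises and falls differed in their starting level and their size. Of the 8294 genes whose 0 h mean lay within background, 205 rose (2.47%) and 4 fell (0.0482%). Among the 2608 genes with 0 h means from 5 to 8, 94 rose (3.6%) and 613 fell (23.5%), and among the 1224 from 8 to 11, 49 rose (4%) and 300 fell (24.5%). A gene at background has no room to fall, so these shares describe where calls could be made. The median rise was 1.67 log2 units (3.18-fold) and the median fall 1.83 (3.55-fold). Rises nevertheless reached further. Of the risers 160 (26.1%) differed by 3 or more log2 units and 39 by 5 or more, against 103 (9.53%) and 1 of the fallers. Background limits the size of a fall, and the fallers started at a median of 6.90 and the risers at 3.66. The room for change was thus unlike, and these sizes do not compare the 2 processes. RMA compresses low values, and 167 risers lay within background on all 3 arrays at 0 h, so a fold given for such a gene is a lower bound, while its log2 difference is the fitted one.

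The largest rise was that of sdz-1, named as a zygotic transcript that depends on SKN-1. It read 13.14, 12.62 and 12.79 at 1 h, against 3.93, 4.46 and 4.18 at 0 h. The hours did not overlap, and the difference of 8.66 ± 0.34 (SE) was a 404-fold rise (adjusted p = 7.4e-09). pes-10, a gene long used as a mark of the earliest zygotic transcription, read 9.77, 9.77 and 10.06 at 1 h, against 2.44, 2.96 and 2.57 at 0 h. It lay within background on every 0 h array and rose at least 100-fold (7.21 ± 0.22 (SE), adjusted p = 9.9e-10). The 3 very early transcripts vet-1, vet-2 and vet-6 rose by 5.35, 3.90 and 4.77, so all 4 measured members of the very early list were called, with a median of 5.06, or 4.89 with values within background set to the mark, against 0.09 over all genes. All 4 were called without 1 h B too.

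Among the other largest rises were genes with known products and genes known here only by a cosmid-style name. dsl-1, named for the DSL family of Notch ligands, read 9.17, 9.55 and 9.64 at 1 h, against 3.89, 3.61 and 2.74 at 0 h, and rose by 6.04 ± 0.37 (SE). hmg-11, named for a high mobility group chromatin protein, read 8.96, 9.74 and 9.39 at 1 h, against 3.18, 3.34 and 3.42 at 0 h, a rise of 6.05 ± 0.16 (SE). skr-9 and skr-8, which encode relatives of Skp1, the adaptor of SCF ubiquitin ligases, rose by 6.96 and 6.00. The probe sets of skr-9 and skr-8 are of a kind that can bind several transcripts, so these rises may not be separate. The hours did not overlap for any of these genes. Of the 15 largest rises, 8 carry cosmid-style names: F56F4.8, Y41D4B.14, F59C12.4, R11A5.3, EEED8.12, F57G9.3, F56A8.8 and Y44A6C.2. F59C12.4 read 13.29, 13.51 and 13.08 at 1 h, against 4.91, 6.70 and 6.97 at 0 h. The 0 h A array lay below the other 0 h arrays for this gene, and the hours did not overlap. The 15 rises ran from 5.92 to 8.66 log2 units (adjusted p at most 2.8e-06), and all 15 were called without 1 h B, at 5.74 to 8.77.

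**Figure D2:**
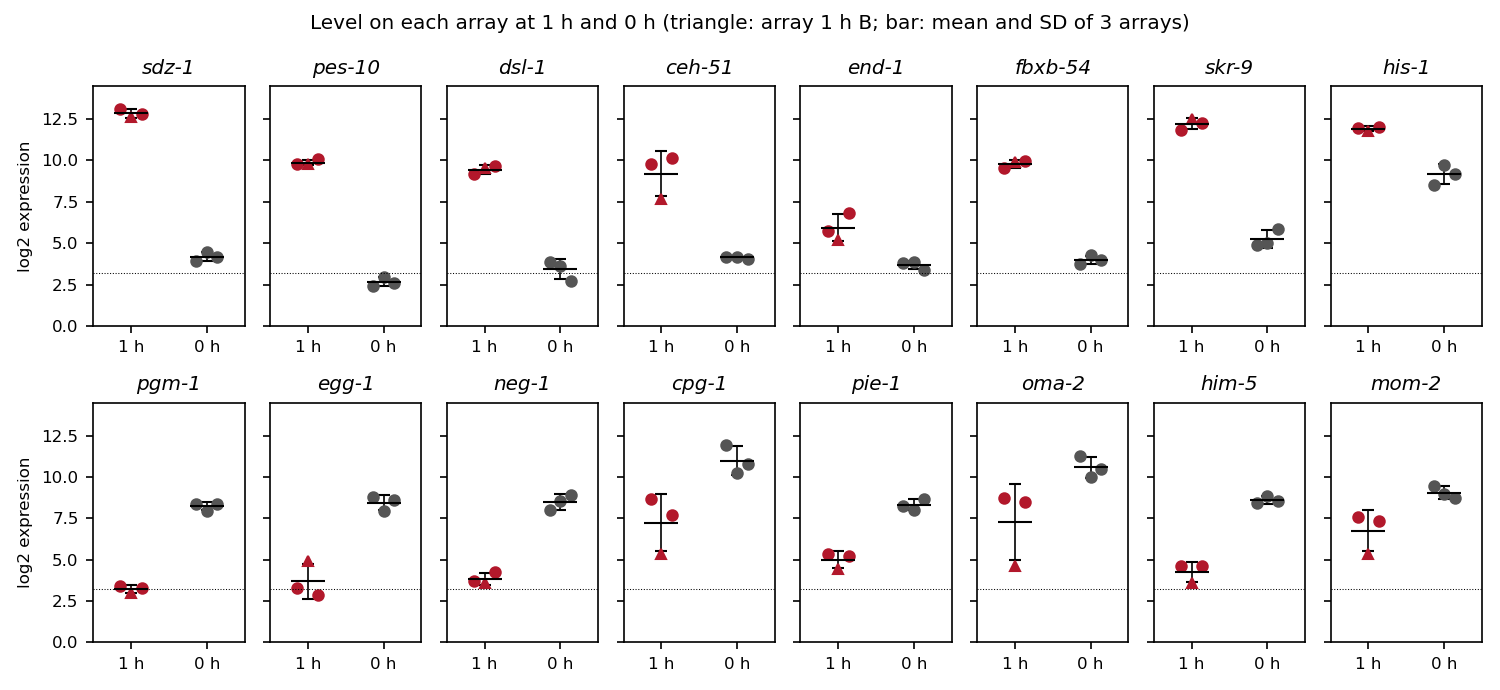
Log2 expression of 16 genes on each array at 1 h (red, left) and 0 h (grey, right), with black bars for the mean and SD of 3 arrays, a triangle for array 1 h B and a dotted line for background (3.22). In every panel the 3 arrays of 1 h lie apart from the 3 of 0 h. Array 1 h B lies furthest below the other 1 h arrays for ceh-51, cpg-1, oma-2 and mom-2. It is also the lowest 1 h array, by less, in other panels, among them him-5, pie-1, end-1 and pgm-1.

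The sdz genes, a class of zygotic transcripts named for their dependence on the maternal transcription factor SKN-1, rose as a group. Of 32 measured, 24 were higher at 1 h (75%) and 0 lower, with a median difference of 2.47 (2.14 with values within background set to the mark), against 3.57% of all genes higher and a median of 0.09. Without 1 h B, 25 were higher. The number higher was 13 with arrays centred on the hybridisation controls, where the median stayed above 0 at 1.29. The called members rose by 0.96 to 8.66, and in each of the 24 every 1 h array lay above every 0 h array. sdz-31 read 9.47, 8.91 and 9.40 at 1 h, against 2.72, 2.66 and 2.98 at 0 h, and sdz-13 read 8.20, 8.88 and 8.48 at 1 h, against 3.01, 2.71 and 2.73 at 0 h. Both were within background on all 3 arrays at 0 h, and rose at least 65.7-fold and 39.3-fold. sdz-18 was above background at both hours, with 9.45, 9.70 and 9.46 at 1 h and 4.93, 4.39 and 4.13 at 0 h, and rose by 5.05 ± 0.18 (SE). sdz-4 rose by 4.55 ± 0.14 (SE) and sdz-25 by 2.78 ± 0.17 (SE). For the 8 members without a call, a p above the threshold does not show that they were unchanged.

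The rising sdz genes parted ways after the first hour. In 10 of the 24 the 2 h mean had returned nearer to the 0 h mean than to the 1 h mean, and in 11 it lay above the 1 h mean. Over 0, 1, 2 and 3 h, sdz-1 averaged 4.19, 12.85, 5.63 and 4.08. sdz-15 averaged 2.45, 7.06, 2.65 and 2.47 over the same hours, and sdz-32 3.40, 7.49, 3.95 and 3.56. Of the 5 hours sampled, these 3 were high at 1 h alone. sdz-28 instead averaged 3.05, 7.18, 10.31 and 8.25, with its highest mean at 2 h, and sdz-30, sdz-33, sdz-9 and sdz-14 likewise had higher means at 2 h (8.13, 8.58, 8.56 and 9.56) than at 1 h (4.43, 5.13, 6.64 and 8.01). The difference between these courses was not tested.

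The family with the most rising genes was fbxb, which encodes F-box proteins, the part of SCF ubiquitin ligases that binds the substrate. Of 95 measured, 64 rose (67.4%) and 0 fell, with a median difference of 2.01 (1.69 with values within background set to the mark). The difference was above 0 in all 95. Without 1 h B 60 rose, and on the hybridisation controls 26 did, with a median of 0.83. The 0 h mean was within background in 60 of the 95. fbxb-54, the largest rise, read 9.53, 9.89 and 9.99 at 1 h, against 3.75, 4.26 and 3.97 at 0 h, and rose by 5.81 ± 0.21 (SE). fbxb-85 read 8.60, 8.66 and 8.79 at 1 h, against 4.03, 3.88 and 3.74 at 0 h, and fbxb-63 read 8.27, 7.82 and 8.53 at 1 h, against 3.35, 3.69 and 3.36 at 0 h, rises of 4.80 and 4.74. The hours did not overlap in any of the 64. fbxb genes are close relatives, and 12 of the 95 probe sets are of a kind that can bind several transcripts, so values of single members are uncertain to that extent.

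Other families of ubiquitin ligase subunits did not move as a whole. Of 44 fbxc F-box genes 10 rose (22.7%) and 1 fell (2.27%), the rises led by fbxc-28 at 5.17 ± 0.32 (SE). The family's median of 0.29 turned to -0.89 on the hybridisation controls and -0.01 on the ribosomal protein genes. Of 171 fbxa F-box genes 1 rose and 7 fell, or 3 and 3 without 1 h B, and the shares of 0.585% and 4.09% stood below those over all genes (3.57% and 6.31%). The 0 h mean lay within background in 130 of the 171, and of all genes in that class 2.47% rose and 0.0482% fell. The skr and btb families were singled out after their values were seen, and the following counts describe them only. Of 19 skr genes 7 rose (36.8%) and 1 fell (5.26%), and of 18 btb genes 6 rose (33.3%) and 1 fell (5.56%), with 7 and 6 rising also without 1 h B. On the hybridisation controls 4 skr and 3 btb genes rose, and both medians were below 0 (-0.67 and -0.86). Of the probe sets, 6 of 19 for skr and 3 of 18 for btb can bind several transcripts. The counts may therefore not be of separate genes. skr-13 read 11.61, 12.00 and 11.55 at 1 h, against 6.15, 7.37 and 7.31 at 0 h, and skr-10 read 10.92, 11.55 and 11.33 at 1 h, against 4.66, 6.06 and 6.55 at 0 h, rises of 4.77 and 5.51. In both families a member went the other way. skr-17 read 5.39, 3.22 and 5.72 at 1 h, against 7.96, 8.32 and 8.33 at 0 h, a difference of -3.42 ± 0.48 (SE) (adjusted p = 4.2e-04). btb-19 read 3.96, 3.46 and 3.65 at 1 h, against 6.74, 7.66 and 7.20 at 0 h, a difference of -3.51 ± 0.24 (SE) (adjusted p = 7.5e-07).

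Some rising genes were neighbours. In the gene order of the WBcel235 annotation, 187 of the 610 risers that could be placed (30.7%) had another riser as a measured gene directly beside them, and 272 of 1081 fallers (25%) another faller, while 3.57% and 6.32% of all placed genes were called in those directions. Each gene has a neighbour on either side, and the share was not tested. The longest runs of adjacent risers held 5 genes, and 1 of these runs was fbxb-81, fbxb-82, fbxb-83, T17A3.12 and fbxb-84. Runs of 4 joined fbxb-105, sdz-10, sdz-9 and fbxb-111, and the histone genes his-4, his-3, his-2 and his-1. Neighbours of these families are often recent copies of each other, and cross-binding of their transcripts to related probe sets was not tested.

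Some regulators of the founder lineages rose. Of 17 measured genes on the list for MS, which makes pharynx and muscle, and E, which makes the gut, 5 rose, 0 fell and 12 were not called, with a median of 0.52 that became -0.66 on the hybridisation controls, where 1 was higher. Without 1 h B 5 rose and the median was 0.33. The share higher with all arrays was 29.4%, against 3.57% over all genes. ceh-51, a homeobox gene of the MS lineage, read 9.77, 7.67 and 10.17 at 1 h, against 4.18, 4.18 and 4.05 at 0 h. The 1 h arrays all lay above the 0 h arrays, and the rise was 5.06 ± 0.52 (SE) (adjusted p = 3.2e-05), or 5.83 without 1 h B. end-1, a GATA factor that specifies the gut, read 5.72, 5.22 and 6.83 at 1 h, against 3.79, 3.83 and 3.41 at 0 h, a rise of 2.25 ± 0.33 (SE), and its relative end-3 rose by 1.20 ± 0.22 (SE). tbx-35, the T-box gene that acts above ceh-51 in MS, read 3.02, 3.53 and 3.76 at 1 h, against 2.57, 2.45 and 2.38 at 0 h. It lay within background on all 3 arrays at 0 h and on 1 h A, so its rise was at least 1.16-fold against the mark. The fitted difference of 0.97 ± 0.18 (SE) (adjusted p = 0.0031) turned to -0.21 on the hybridisation controls. The fifth listed gene, mls-2, an HMX-type homeobox gene known from the postembryonic M lineage and the nervous system and not as a specifier of MS or E, rose by 1.05 ± 0.26 (SE) (adjusted p = 0.022), with -0.13 on the hybridisation controls. Its call was lost without 1 h B (0.80, adjusted p = 0.091), 0 h B (1.03, adjusted p = 0.068) or 0 h C (0.90, adjusted p = 0.11), and its other probe sets, at 0.28 and 0.37, were not called. med-1, a GATA factor directly downstream of SKN-1, read 3.62, 3.31 and 4.28 at 1 h, against 3.28, 3.08 and 3.15 at 0 h, close to background. It was called only without 1 h B (0.78, adjusted p = 0.02, against 0.56 and 0.11 with it).

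Regulators of other lineages were called in part. Of 17 regulators of the AB lineage and ectoderm 4 rose and 1 fell, with examples in ceh-36, an Otx-type homeobox gene (4.74, 5.43 and 4.29 at 1 h and 3.21, 2.94 and 2.86 at 0 h, a rise of 1.82, or at least 3.03-fold against the mark), and ceh-43, a Distal-less homologue (5.14, 5.52 and 5.04 at 1 h and 3.77, 3.73 and 3.85 at 0 h, a rise of 1.45). The shares were 23.5% and 5.88%, against 3.57% and 6.31% over all genes. On the hybridisation controls 0 of the 17 were higher, with a median of -0.92. Of the 10 genes on the list for the C and D lineages, whose activator pal-1 was among the injected genes, 0 rose and 1 fell (10%). That was tbx-9, at -2.25 ± 0.53 (SE) (adjusted p = 0.016), or -1.39 without 1 h B, whose call was lost without 0 h B (adjusted p = 0.052) or 0 h C (adjusted p = 0.066). Proneural genes of the basic helix-loop-helix type were largely without a call, with 2 of 13 higher (15.4%). These were ngn-1, the neurogenin gene, at 7.98, 7.83 and 9.09 at 1 h and 4.38, 4.63 and 4.13 at 0 h, and hlh-3, a relative of achaete and scute, at 8.78, 9.68 and 9.13 at 1 h and 6.07, 5.71 and 5.40 at 0 h. Their rises were 3.92 ± 0.30 (SE) and 3.47 ± 0.26 (SE).

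Among families of transcription factors as a whole, 7 of 60 ceh homeobox genes rose (11.7%, against 3.57% over all genes) and 0 fell. The rises were led by ceh-76 at 5.73 ± 0.63 (SE) and included ceh-49 at 1.96 ± 0.31 (SE). On the hybridisation controls 2 rose and 1 fell. Of 17 tbx T-box genes 5 rose (29.4%) and 2 fell (11.8%), or 0 and 2 on the hybridisation controls. tbx-7 read 6.58, 6.42 and 6.23 at 1 h, against 3.55, 4.08 and 3.54 at 0 h, and tbx-36 moved the other way with 4.03, 2.97 and 5.24 at 1 h, against 7.11, 7.89 and 7.45 at 0 h. Their differences were 2.69 ± 0.33 (SE) and -3.40 ± 0.41 (SE). The forkhead gene fkh-5 rose by 5.57 ± 0.24 (SE), 1 of 7 fkh genes (14.3%). The nuclear hormone receptor family had 2 of 255 genes higher and 7 lower, shares of 0.784% and 2.75% against 3.57% and 6.31% over all genes. The 0 h mean lay within background in 167 of the 255, and of all genes in that class 2.47% rose and 0.0482% fell.

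Core histone genes rose as well on the deposited scale, 56% of those measured, against 3.57% over all genes. Of 25 core histone genes 14 were higher and 0 lower, with a median of 0.93 (1.17 without 1 h B, again with 14 higher), but 0 were higher on the hybridisation controls, where the median was -0.26. his-1, an H4 gene, read 11.98, 11.76 and 12.01 at 1 h, against 8.53, 9.75 and 9.21 at 0 h, a rise of 2.76 ± 0.26 (SE). his-38 and his-31 rose by 2.71 and 2.56. Histone genes are near-identical copies and 18 of the 25 probe sets can bind several of them, so the counts are not counts of separate genes. Of 62 ribosomal protein genes named by number 10 were higher, by at most 1.03, and 0 lower. That direction turned on the hybridisation controls, with a median of -0.85 and 0 higher, against 0.34 on the deposited scale.

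**Figure D3:**
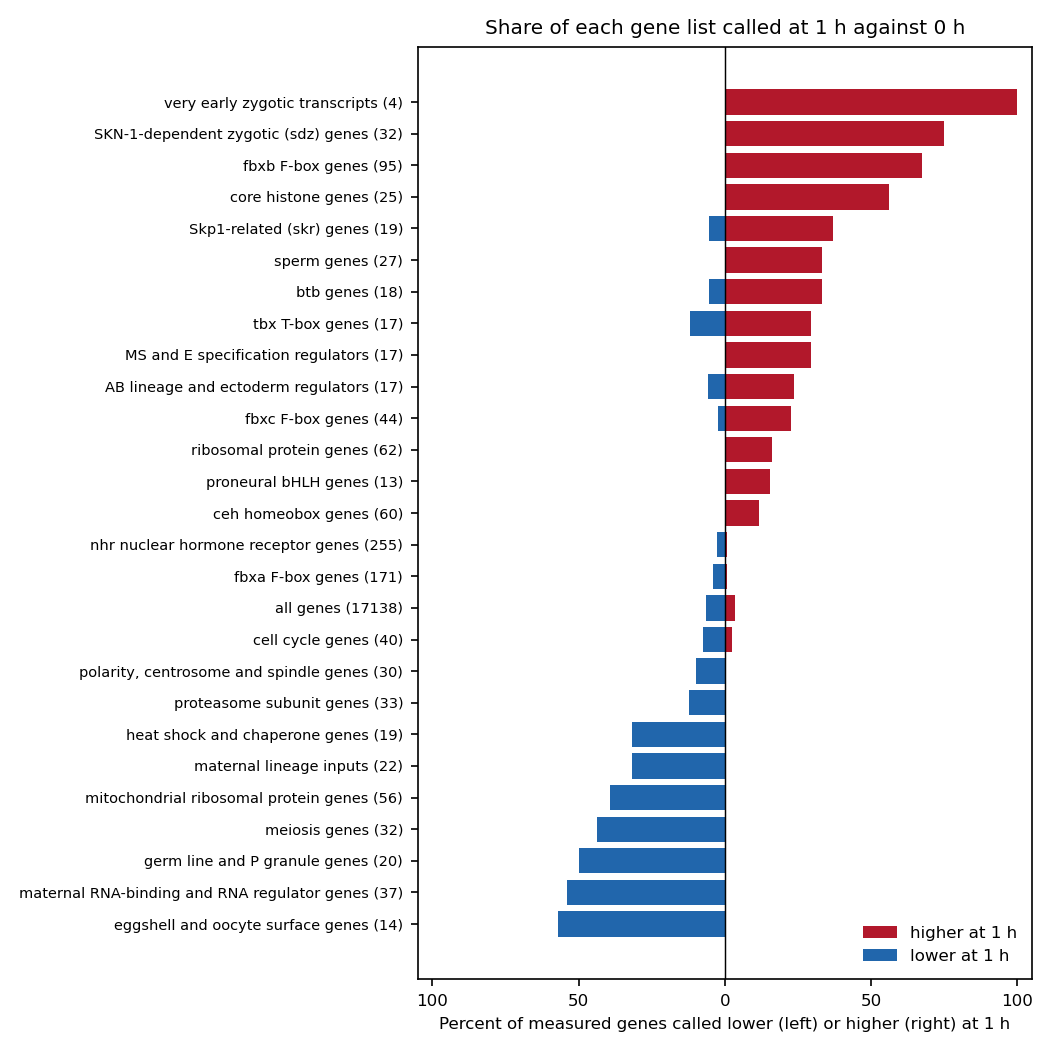
Percent of the measured genes of each list (number in brackets) called higher at 1 h (red, to the right) or lower at 1 h (blue, to the left) against 0 h. The bars for very early, sdz and fbxb genes lie on the right, those for eggshell, RNA regulator, germ line and meiosis genes on the left, and all genes have 3.57% and 6.31%.

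The largest fitted fall was that of pgm-1, named for phosphoglucomutase. It read 3.39, 2.96 and 3.30 at 1 h, against 8.37, 7.95 and 8.35 at 0 h. The 1 h mean lay within background, so the fitted difference of -5.01 ± 0.15 (SE) (adjusted p = 9.9e-10) is set against a level not above the mark. The next were egg-1 and egg-2, which encode receptor-like proteins of the oocyte surface needed for fertilisation. egg-1 read 3.29, 4.91 and 2.87 at 1 h, against 8.80, 7.93 and 8.63 at 0 h, and egg-2 read 5.09, 4.61 and 7.62 at 1 h, against 10.52, 10.24 and 10.82 at 0 h. In egg-1 array 1 h B lay above the other 1 h arrays, and the difference was -4.77 ± 0.41 (SE), or -5.37 without it. egg-2 differed by -4.75 ± 0.62 (SE), or -4.17 without 1 h B. neg-1, a maternal gene that keeps gut fate out of the anterior of the embryo, read 3.69, 3.59 and 4.27 at 1 h, against 7.98, 8.56 and 8.90 at 0 h, and differed by -4.63 ± 0.23 (SE). The 15 largest falls ran from 3.85 to 5.01 log2 units in size (adjusted p at most 0.0036), all called without 1 h B at 3.05 to 5.37. They included him-5 (-4.35), which promotes crossing over on the X chromosome, mesp-1 (-3.98), a meiotic spindle protein, rde-3 (-3.85), a nucleotidyltransferase needed for RNA interference, the lipid-binding protein gene lbp-9 (-4.09), gfat-1 (-3.90), which starts the hexosamine pathway that feeds chitin synthesis, and the pyruvate dehydrogenase kinase gene pdhk-2 (-4.04). The others were F35C11.5, K08F4.3, Y39G10AR.9, Y39E4B.5 and fbxc-50, an F-box gene whose other probe set differed by 0.21 with no call (adjusted p = 0.54). Without 1 h B the falls of F35C11.5, K08F4.3 and Y39G10AR.9 were smaller, at -3.43, -3.49 and -3.05. Those of egg-1 and lbp-9 were larger, at -5.37 and -4.26.

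Transcripts for the eggshell and the oocyte surface, whose products act at fertilisation, were lower. Of 14 measured 8 fell and 0 rose (57.1% lower, against 6.31% over all genes), with a median of -2.57, or 7 and -1.95 without 1 h B. The median 0 h level of the list was 9.65, and of all genes with 0 h means from 8 to 11, 24.5% fell. The chondroitin proteoglycan genes of the eggshell started near the top of the scale. cpg-1 read 8.66, 5.32 and 7.71 at 1 h, against 11.93, 10.24 and 10.77 at 0 h, and cpg-3 read 7.40, 7.56 and 9.31 at 1 h, against 11.73, 11.98 and 11.91 at 0 h. The hours did not overlap, and the differences were -3.75 ± 0.65 (SE) and -3.78 ± 0.62 (SE). cpg-2 differed by -2.84 ± 0.57 (SE), egg-3, an anchor of the egg cortex, by -2.88 ± 0.61 (SE) (-1.91 without 1 h B), and chs-1, the chitin synthase of the eggshell, by -2.29 ± 0.25 (SE). cbd-1, a chitin-binding eggshell protein gene, read 8.15, 4.99 and 7.76 at 1 h, against 11.97, 8.77 and 9.09 at 0 h, with a wide spread at both hours, and its -2.98 was not called (adjusted p = 0.055). It was called without 0 h B (adjusted p = 0.043) or 1 h A (adjusted p = 0.039), and its other probe set was called at -2.88 (adjusted p = 6.9e-04).

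Maternal RNA-binding proteins and RNA regulators, which control when stored transcripts are translated, fell in 20 of 37 cases (54.1%) and rose in 0, with a median of -1.69 (18 and -1.21 without 1 h B). Over all genes 6.31% fell, and 23.5% of those with 0 h means from 5 to 8, where the median of this list lay (7.97). puf-3, a Pumilio-family repressor, read 3.93, 3.60 and 5.17 at 1 h, against 8.55, 7.31 and 7.95 at 0 h, and its relative puf-8 read 3.22, 3.51 and 3.22 at 1 h, against 5.28, 7.60 and 6.63 at 0 h. pie-1, whose protein keeps the germ line precursor transcriptionally silent, read 5.37, 4.44 and 5.22 at 1 h, against 8.26, 8.01 and 8.66 at 0 h. Arrays of the hours did not overlap for any of the 3, and the differences were -3.70 ± 0.37 (SE), -3.19 ± 0.41 (SE) and -3.30 ± 0.29 (SE). mex-3, a KH-domain regulator of the anterior, differed by -2.98 ± 0.33 (SE), and spn-4, a regulator of maternal translation, by -2.57 ± 0.53 (SE). nos-1 differed by -1.70 ± 0.37 (SE). oma-2, needed for oocyte maturation, read 8.73, 4.64 and 8.50 at 1 h, against 11.24, 9.99 and 10.50 at 0 h. Here 1 h B lay far below the other 1 h arrays, and the difference was -3.29 ± 0.81 (SE) with it and -1.96 without it (adjusted p = 0.021 and 0.0026). The oma-2 call was lost without 0 h A (adjusted p = 0.071) or 0 h C (adjusted p = 0.064).

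Germ line and meiotic transcripts were lower as well. Of 20 germ line and P granule genes 10 fell (50%) and 0 rose (9 lower without 1 h B), with a median of -1.06. Over all genes 6.31% fell, and 23.5% of those with 0 h means from 5 to 8. The P granule scaffold genes pgl-1, pgl-2 and pgl-3 differed by -1.46, -2.11 and -2.48. wago-1 and prg-1, which encode Argonaute proteins of the germ line, differed by -3.64 and -2.49, and deps-1, a P granule protein gene, by -2.67. nos-2, a Nanos relative required in the germ line precursors, read 8.81, 8.58 and 9.07 at 1 h, against 9.58, 10.07 and 9.58 at 0 h. Its hours did not overlap, but its fall of -0.92 ± 0.17 (SE) was the smallest of the 10. Of 32 meiosis genes 14 fell (43.8%) and 0 rose (11 lower without 1 h B), with a median of -1.07. him-3, a protein of the chromosome axis, read 5.75, 4.04 and 6.08 at 1 h, against 8.32, 8.70 and 8.31 at 0 h, and syp-4 and syp-2, of the synaptonemal complex, differed by -2.93 and -1.16.

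Of 22 maternal genes that set up the early lineages, 7 fell and 0 rose (6 without 1 h B), with a median of -0.88 (-0.46 without it). The share lower was 31.8%, against 6.31% over all genes and 23.5% of those with 0 h means from 5 to 8. mom-2, the Wnt ligand by which the P2 blastomere polarises its neighbour EMS, read 7.57, 5.32 and 7.37 at 1 h, against 9.47, 8.99 and 8.70 at 0 h. zif-1, the substrate adaptor that removes PIE-1 from somatic cells, read 3.96, 3.47 and 3.88 at 1 h, against 7.71, 5.29 and 6.60 at 0 h. The hours did not overlap in either, and the differences were -2.30 ± 0.46 (SE) and -2.76 ± 0.43 (SE). skn-1 itself read 3.17, 2.88 and 2.60 at 1 h, against 5.23, 3.22 and 4.69 at 0 h, a difference of -1.50 ± 0.40 (SE) that was called (adjusted p = 0.033) but not without 1 h B (adjusted p = 0.085), 1 h C (adjusted p = 0.089), 0 h A (adjusted p = 0.11) or 0 h C (adjusted p = 0.13). Its other probe sets, at -0.67 and -0.58, were not called. Among 12 Notch pathway genes 1 fell (8.33%, near the 6.31% over all genes), and 0 did without 1 h B.

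Some abundant maternal transcripts that were low at later hours were not called in the first. pos-1, a zinc-finger regulator of the posterior, read 10.90, 9.40 and 10.80 at 1 h, against 11.40, 11.19 and 11.20 at 0 h, a difference of -0.90 (adjusted p = 0.29), and averaged 6.12 at 2 h. oma-1 read 9.39, 6.08 and 8.97 at 1 h, against 10.15, 8.57 and 9.33 at 0 h (-1.20, adjusted p = 0.39) and averaged 6.44 at 2 h. For both genes 1 h B was the lowest 1 h array, and without it the differences were -0.42 and -0.17. mex-5, which sets up the anterior cytoplasm, was not called at its stronger probe set (-2.16, adjusted p = 0.053), was called there without 0 h B (adjusted p = 0.024) or 1 h A (adjusted p = 0.0082), and was called at its other probe set (-2.40, adjusted p = 0.029). A p above the threshold does not show that these transcripts were unchanged. Standard errors were 0.75 for oma-1 and 0.46 for pos-1, where the median over all probe sets was 0.19 log2 units.

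Among housekeeping lists, mitochondrial ribosomal protein genes held the most falls. Of 56 mitochondrial ribosomal protein genes, a family singled out after its values were seen, 22 fell (39.3%) and 0 rose, with a median of -1.15 (16 and -0.98 without 1 h B). mrpl-34 read 4.54, 4.52 and 5.89 at 1 h, against 7.61, 8.69 and 8.58 at 0 h, and mrpl-10 read 5.66, 5.25 and 5.45 at 1 h, against 7.45, 8.43 and 8.20 at 0 h. Of 33 proteasome subunit genes 4 fell (2 without 1 h B), of 19 chaperone genes 6 (4 without it), of 40 cell cycle genes 3 with 1 higher (2 and 2 without it), and of 30 polarity and spindle genes 3 with 0 higher (1 and 1 without it). The shares lower were 12%, 31.6%, 7.5% and 10%, against 6.31% over all genes. The median 0 h levels of these lists were 9.64, 3.60, 6.74 and 6.31. Of all genes with 0 h means from 5 to 8 and from 8 to 11, 23.5% and 24.5% fell. The proteasome, cell cycle and polarity shares thus lay below those of genes at like levels. Of genes above background to 5, the class of the chaperone median, 3.07% fell. The chaperone list was mixed in level, however, and that class does not match it. At 0 h 7 of its 19 genes had means within background, while its mean on the 0 h arrays was 4.90 to 5.50, above its median. Without 1 h B the medians of the cell cycle and polarity lists were 0.05 and -0.02, against -0.22 and -0.30 with it, and that of the proteasome list was -0.41, against -1.16. Examples were pas-3, a proteasome core subunit (-1.28 ± 0.25 (SE)), hsp-4, the chaperone of the endoplasmic reticulum (-2.81 ± 0.34 (SE)), and orc-1, of the origin recognition complex (-3.34 ± 0.61 (SE)).

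Few transcripts of differentiated tissues were called. In 18 body wall muscle genes, 16 neuron genes and 5 yolk protein genes limma called 0 changes, and in 11 gut genes 1, which was lost without 1 h B. vit-4, a yolk protein gene, read 3.06, 8.58 and 3.15 at 1 h, against 4.90, 5.03 and 3.50 at 0 h, so the high value was on 1 h B alone, and without it the gene was called lower (-1.37, adjusted p = 0.044). Of 27 sperm genes, mostly of the major sperm protein family, 9 were higher (33.3%, against 3.57% over all genes) and 0 lower (6 higher without 1 h B). Their median of 0.62 (0.38 without it) turned to -0.56 on the hybridisation controls. Their mean was 4.02, 4.75 and 4.44 on 1 h A, B and C, against 3.73, 3.61 and 3.81 on 0 h A, B and C, and 22 or 23 of the 27 were above background on each 1 h array, against 17 or 18 on each 0 h array. The probe sets of 25 of the 27 can bind several family members, and the part of any sperm RNA in these values was not tested.

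The injected genes were not called. mex-1 read 6.00, 3.50 and 5.95 at 1 h, against 4.02, 4.50 and 5.37 at 0 h, with 1 h B below both other 1 h arrays. lit-1 read 4.50, 4.20 and 4.13 at 1 h, against 3.96, 3.86 and 3.70 at 0 h, and pal-1 read 6.97, 8.97 and 8.65 at 1 h, against 6.99, 7.45 and 5.09 at 0 h. The differences were 0.52 ± 0.62 (SE), 0.43 ± 0.17 (SE) and 1.69 ± 0.73 (SE), with adjusted p-values of 0.67, 0.16 and 0.21. Without 1 h B they were 1.34, 0.47 and 1.3, with adjusted p-values of 0.14, 0.24 and 0.54. Since the dsRNA was in the mothers of both groups, these levels do not measure its effect.

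After the first hour most fallers stayed low while risers went different ways. The median level of the 612 risers was 3.66 before incubation and then 6.29, 6.95, 5.10 and 4.39 after 1, 2, 3 and 4 h. That of the 1081 fallers was 6.90, 4.75, 4.73, 4.68 and 4.55 at the same hours. The highest of the 5 hourly means fell in the first hour for 272 risers, at 2 h for 245, and later for 47 (3 h) and 48 (4 h). At 2 h the mean was nearer to 0 h than to 1 h in 193 risers (31.5%) and 218 fallers (20.2%). Values at 1 h and 0 h chose these genes, so these counts are a description, and the comparison of 4 h with 2 h, which shares no array with the first hour but comes from the same fit and its estimate of each probe set's spread, was set beside them. Of the risers 262 (42.8%) were lower at 4 h than at 2 h and 17 (2.78%) higher, and of the fallers 29 (2.68%) were lower and 42 (3.89%) higher, where over all genes 3.69% were lower and 2.3% higher (3.4% and 2.21% over probe sets). The median level at 2 h was 6.95 for the risers and 4.73 for the fallers, and a gene at background has no room to fall. These shares are therefore not between genes of like level. Leaving 1 h B out of the fit moved the probe sets called between 4 h and 2 h to 926 lower and 600 higher, against 766 and 498 with it.

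**Figure D4:**
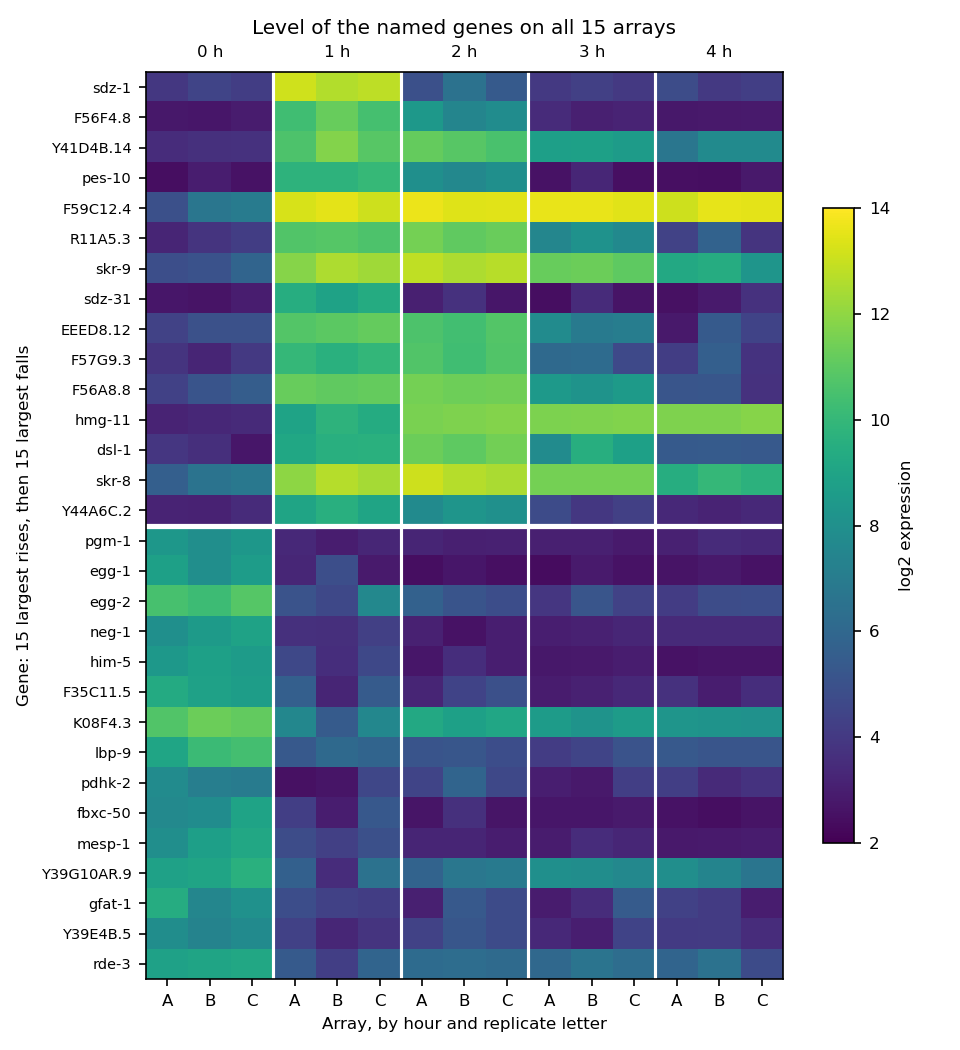
Log2 expression (colour, 2 to 14) of the 15 genes with the largest rises and the 15 with the largest falls in the first hour, on all 15 arrays in order of hour and replicate letter. Bright values of the risers start at 1 h on all 3 arrays, with sdz-1 and sdz-31 dark again at 2 h and hmg-11 and F59C12.4 bright to 4 h, while most fallers stay dark from 1 h on.

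The named genes show these courses. Of the 15 largest rises 12 were lower at 4 h than at 2 h, among them pes-10 (-5.26, adjusted p = 1.2e-08) and dsl-1 (-5.84, adjusted p = 4.4e-07). hmg-11 instead averaged 9.36, 11.67, 11.68 and 11.72 over 1, 2, 3 and 4 h, and F59C12.4 kept means between 13.3 and 13.6 from 1 h to 4 h. Of the 15 largest falls, limma called 0 in either direction between 2 h and 4 h. K08F4.3 averaged 11.05 at 0 h, 6.86 at 1 h and 9.05 at 2 h, between its levels of the earlier hours. Of the 64 rising fbxb genes 57 were lower at 4 h than at 2 h, and 54 had a higher mean at 2 h than at 1 h, while only 1 was nearer to its 0 h mean at 2 h. fbxb-66 was among the few that stayed high, with means of 7.66, 10.59, 11.32 and 10.42 at 1, 2, 3 and 4 h. tbx-7 averaged 4.73 at 2 h and 11.31 at 4 h, a further rise of 6.58 (adjusted p = 5.9e-08). Among the falling lists, 16 of 20 RNA regulators, 10 of 10 P granule genes and 12 of 14 meiosis genes had a 2 h mean below the 1 h mean. Of the 22 mitochondrial ribosomal protein genes, 2 lay below it and 13 were nearer to the 0 h mean. The RNA regulator and P granule lists share members, nos-2 among them, so their counts are not of separate genes. The difference between these lists was not tested.

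**Figure D5:**
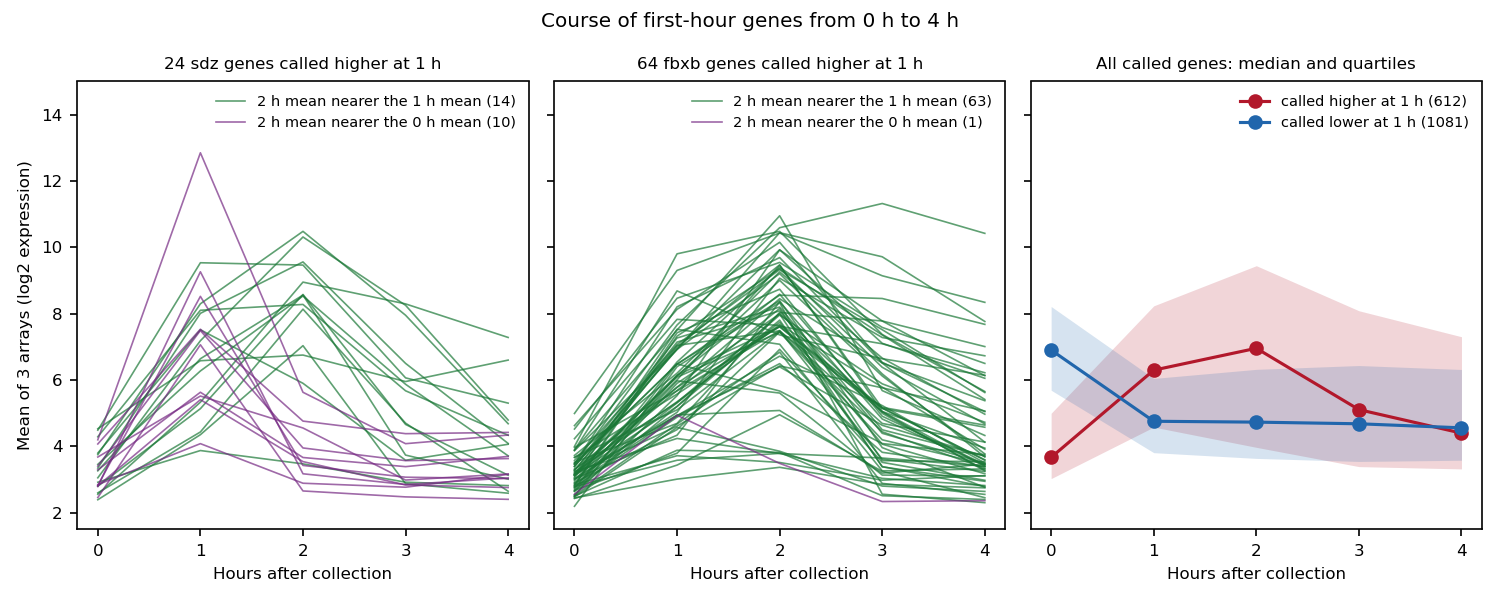
Mean log2 expression of 3 arrays at 0, 1, 2, 3 and 4 h for the 24 sdz genes (left) and the 64 fbxb genes (middle) called higher at 1 h, 1 line per gene, coloured by whether the 2 h mean is nearer to the 1 h mean (green) or the 0 h mean (purple), with the median and quartiles of all called genes on the right. In 10 sdz genes and 1 fbxb gene the 2 h mean is nearer to the 0 h mean.

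Array 1 h B read low for many of the falls. It was the lowest of the 3 arrays of 1 h in 709 of the 1081 fallers (65.6%), against 203 of the 612 risers (33.2%) and 31.3% of all genes. The fallers were called with 1 h B included, so a low value there helped to choose them. All genes do not match the fallers in level either. Of the 17138, 8294 had a 0 h mean within background, and 1 h B was the highest 1 h array in 47.4% of all genes. In the fallers 1 h B lay a median of 0.45 log2 units below the mean of the other 1 h arrays, and in the risers 0.07 above it. The counts without 1 h B do not measure its part in the falls, since leaving out any array also removes a replicate. Lower probe sets numbered 988 without 1 h B, 899 without 0 h C and 1220 without 1 h A. With the arrays placed by their time tags, which leaves 1 h A alone at 1 h, 228 probe sets were lower, and 34.3% of all calls were higher.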

How the data were processed

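RNA of embryos was measured on Affymetrix C. elegans arrays, 3 per hour at 0, 1, 2, 3 and 4 h. The deposited values are log2 expression per probe set, made by the authors with RMA, per the submitters' processing notes, whose version is not given in the sources used here. They span 1.78 to 14.2, were used as deposited, and 0 value columns were left without a sample. Of 22625 probe sets, 77 controls were left out. The platform annotation gave 20810 probe sets a single gene symbol, 843 several and 895 none, and 20745 symbols were updated to RefSeq (WBcel235). Each of 17138 genes was represented by its probe set with the highest mean over all 15 arrays, since 2998 genes have several.

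The hour in an array's title set its group. All 15 arrays and 22548 probe sets were fitted with limma 3.58.1 in R 4.3.3 (lmFit, contrasts and eBayes), and p-values were adjusted by Benjamini-Hochberg over all probe sets, with calls at 0.05. Genes without 1 h B come from the same fit without that array. A fold is 2 to the power of the log2 difference. Where the dim hour lay within background (3.22, from 15 bacterial control probe sets) on all 3 arrays, the fold was computed against that mark and is a lower bound. The genes named are the 15 with the largest rises and the 15 with the largest falls that were called and whose hours did not overlap, with members of the gene lists and the 3 injected genes. The comparison and the lists were chosen with earlier results of these data known, and the skr, btb and mitochondrial ribosomal lists after their values were seen. On simulated data for 1 h against 0 h over 22548 probe sets, limma recovered 30% and 32% of 50 probe sets raised or lowered by 1 log2 unit and 80% and 80% of 50 changed by 2, with 3 false calls. The simulated noise was independent between arrays, with no array apart as 1 h B is, and the changed probe sets had means above the background mark. These rates can therefore differ from those on the real arrays. Alternatives were other scalings, array weights, a variance trend, a filter on low values (14269 probe sets kept), a replicate block, the 6 arrays alone, the time tags, and leaving out each array of the hours compared. Signal near background, and not read depth, limits arrays.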

Additional observations from a re-analysis of the deposited data

How the results depend on the processing

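Against 743 higher and 1371 lower probe sets at 1 h, leaving out each 1 h or 0 h array in turn gave 538 to 888 higher and 899 to 1483 lower. For 4 h against 2 h (498 and 766 with all arrays), leaving out each 2 h or 4 h array gave 340 to 466 higher and 551 to 807 lower, and leaving out 1 h B, chosen after seeing the data, 600 and 926. Arrays placed by their time tags gave 1.2e+02 (rounded) and 228 (284 and 289 for 4 h against 2 h), both 1 h B and 1 h C left out 493 and 633, and the 6 arrays alone 445 and 679. The 5 arrays without 1 h B, an alternative chosen after seeing the data, gave 491 and 575. Centring on hybridisation controls gave 181 and 2658, and on ribosomal protein genes 493 and 2499. Array weights gave 1372 higher. The other alternatives kept both counts within 1.5 times. With 3 exceptions, the named genes kept their direction wherever they were called: the other probe set of fbxc-50 (0.21), and on the hybridisation controls tbx-35 (-0.21) and mls-2 (-0.13). Over 110 named genes and all settings, 1845 of 2005 values kept direction and side of the threshold, 136 lost a call and 21 gained one. Replicates share letters only. With the replicate block 702 probe sets were higher and 1304 lower (467 and 720 for 4 h against 2 h). Deviations of same-lettered arrays correlated at 0.0992, 0.0931 and 0.286 for A, B and C, and 3 of 6 arrays correlated best with their own letter. The causes of these changes were not tested. Values near background and 3 arrays an hour set what could be called.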
